A study of Caenorhabditis elegans with 2 samples.

Results

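The regions described here are intergenic summits of a nuclear hormone receptor that lie near genes but outside their promoters. They come from chromatin immunoprecipitation and sequencing (ChIP-seq) of eGFP-tagged NHR-28 in whole Caenorhabditis elegans at the L4 larval stage. From the deposited optimal set of 8745 regions, a summit was kept when it fell outside every annotated gene of any type and outside every promoter window, with its nearest protein-coding transcription start site (TSS) at most 3000 bp away. A promoter window covered the 1000 bp before and the 200 bp after a protein-coding TSS. The rule kept 1367 summits, 15.6% of the optimal set (95% Wilson interval 14.9 to 16.4%). None of the measured signal values entered the rule. The single group was strain OP317, which carries unc-119(ed3) III and the integrated array wgIs317, and larvae of both sexes were pooled. It had 2 biological replicates by label, each with a deposited list of 30000 regions, and no control sample was analysed here. The array adds tagged receptor to whole larvae, so neither the cells in which a region was bound nor binding by the untagged receptor can be read from these lists. The depth of the libraries is unknown, and all intervals below cover counting error only, since neighbouring regions and genes are not replicates.

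NHR-28 belongs to the nuclear hormone receptors, transcription factors that bind DNA through a pair of zinc fingers and in many animals respond to small lipophilic ligands. In nematodes this family has expanded greatly from an ancestor related to vertebrate HNF4, a regulator of lipid and xenobiotic metabolism in liver and gut. C. elegans genes are compact and most regulatory sequence lies close to the coding region. Many transcripts are trans-spliced, so an annotated 5′ end can lie downstream of the true site of initiation. GATA factors such as ELT-2 bind sites with the core TGATAA and are the main regulators of intestinal genes in this animal.

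The sequences under some of the strongest of these summits show what they share and where they differ. Each window is the summit base with 50 bp to either side, on the plus strand of WBcel235 (ce11) as given by RefSeq, and capitals mark TGATAA or its reverse complement TTATCA. Some of those that hold the motif are shown, named by the gene of the nearest TSS. The windows by nstp-2, R10A10.1, R11F4.1 and hmbx-1 also hold it and have a higher signal than set-4, but are not printed. Shown are cytb-5.1 at chrX:14000321-14000421, fat-1 at chrIV:13314305-13314405, emb-8 at chrIII:5201455-5201555, idh-1 at chrIV:9442320-9442420, zig-13 at chrIII:154338-154438, sdz-19 at chrX:12500992-12501092, acs-5 at chrIII:13544709-13544809 and set-4 at chrII:6328842-6328942.
cytb-5.1: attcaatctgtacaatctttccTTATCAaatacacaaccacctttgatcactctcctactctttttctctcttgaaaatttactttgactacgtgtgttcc
fat-1: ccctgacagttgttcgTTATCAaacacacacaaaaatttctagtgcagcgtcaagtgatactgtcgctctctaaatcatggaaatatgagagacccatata
emb-8: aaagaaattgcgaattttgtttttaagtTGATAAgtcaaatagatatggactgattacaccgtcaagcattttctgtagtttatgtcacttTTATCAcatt
idh-1: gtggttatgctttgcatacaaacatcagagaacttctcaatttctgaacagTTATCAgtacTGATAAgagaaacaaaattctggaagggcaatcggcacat
zig-13: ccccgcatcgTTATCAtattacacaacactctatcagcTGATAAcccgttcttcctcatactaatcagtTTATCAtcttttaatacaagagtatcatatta
sdz-19: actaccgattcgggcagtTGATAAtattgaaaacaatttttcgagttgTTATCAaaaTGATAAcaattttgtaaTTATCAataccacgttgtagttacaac
acs-5: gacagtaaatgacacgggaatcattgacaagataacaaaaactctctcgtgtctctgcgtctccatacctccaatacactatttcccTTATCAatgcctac
set-4: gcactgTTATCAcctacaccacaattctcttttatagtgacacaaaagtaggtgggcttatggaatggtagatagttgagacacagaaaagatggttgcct

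The sdz-19 window held 4 matches and the zig-13 window 3. In idh-1 the 2 matches lay almost next to each other, and in emb-8 the 2 lay near opposite parts of the window. For contrast, 6 of the strongest summits with no TGATAA are shown; those by Y48G10A.3, nhr-62 and pad-1 also lack it and are not printed. They are ncl-1 at chrIII:7718444-7718544, gldi-3 at chrII:9282946-9283046, cest-26 at chrX:4439006-4439106, W02F12.2 at chrV:6699171-6699271, ZK637.12 at chrIII:8926683-8926783 and nadk-1 at chrIV:1454325-1454425.
ncl-1: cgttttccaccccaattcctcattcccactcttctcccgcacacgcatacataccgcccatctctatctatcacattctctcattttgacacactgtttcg
gldi-3: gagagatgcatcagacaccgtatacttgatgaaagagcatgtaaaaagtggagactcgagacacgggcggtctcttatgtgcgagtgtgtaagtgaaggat
cest-26: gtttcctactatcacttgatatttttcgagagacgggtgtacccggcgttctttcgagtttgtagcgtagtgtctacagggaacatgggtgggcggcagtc
W02F12.2: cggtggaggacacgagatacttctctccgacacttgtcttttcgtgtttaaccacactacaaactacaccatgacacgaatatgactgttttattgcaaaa
ZK637.12: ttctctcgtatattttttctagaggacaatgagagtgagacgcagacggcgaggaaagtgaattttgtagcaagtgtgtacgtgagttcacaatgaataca
nadk-1: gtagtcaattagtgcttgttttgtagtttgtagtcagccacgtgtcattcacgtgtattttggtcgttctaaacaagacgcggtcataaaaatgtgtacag

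The ncl-1, gldi-3 and cest-26 windows each held 1 match to CCGCCC on either strand, a GC-rich core recognised by Sp1 and Krüppel-like factors. The nadk-1 window held 2 matches to CACGTG, the E-box core of several basic helix-loop-helix factors. The ZK637.12 window held 1 match to AGTTCA, a variant half-site, and the W02F12.2 window held none of the 12 motifs searched. None of these 6 windows held AGGTCA, the half-site of many nuclear receptors.

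These summits were of ordinary strength for the optimal set. Their signal, a value per region on the authors' own scale, ranged from 36.2 to 830, with quartiles at 50.1 and 119.3 and a median of 72.7. The median was 75.3 at the 4645 promoter summits, 69.1 at the 1471 intronic summits outside promoters and 71.1 at the 772 intergenic summits farther than 3000 bp from a TSS. Of the 1367, 683 (49.96%, 47.3 to 52.6%) exceeded the median of all optimal regions. Among the highest ranks they made up 38 of the top 300 regions (12.7%) and 155 of the top 1000 (15.5%).

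The summit of highest signal lay 1510 bp upstream of Y48G10A.3 (I 13475461 to 13475876) and was the fourth strongest region of the whole optimal set. Its signal was 830 in the pooled list, 493 in replicate 1 and 342 in replicate 2. The second lay 1553 bp upstream of cytb-5.1, a cytochrome b5 gene (X 14000185 to 14000583), with 550 in the pooled list, 352 in replicate 1 and 208 in replicate 2. Both ranked within the top 36 regions of each replicate list, and the Y48G10A.3 summit stood well above the rest. The third lay 1235 bp upstream of ncl-1 (III 7718353 to 7718668), which encodes a repressor of nucleolar size, with 520 pooled, 334 in replicate 1 and 194 in replicate 2. The fourth had 511 pooled, 321 in replicate 1 and 195 in replicate 2, and lay between 2 genes that start on either side of it, gldi-3 at 2898 bp and mtrr-1 at 2979 bp (II 9282778 to 9283184). Assignment to the nearest TSS was thus close to arbitrary there, and a nearest gene is used below only as an address.

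Several of the 20 strongest summits were nearest to genes of metabolism, grouped here only for reading. A summit 1289 bp upstream of fat-1, the desaturase that makes omega-3 fatty acids, had a signal of 423 in the pooled list, 273 in replicate 1 and 145 in replicate 2. One 1828 bp upstream of emb-8, the NADPH-cytochrome P450 reductase, had 392, 272 and 119 in the same order. The summit 1263 bp upstream of idh-1, an NADP-dependent isocitrate dehydrogenase, had 391, 254 and 142. The summit 2700 bp upstream of nadk-1, an NAD kinase, had 344, 173 and 172. Carboxylesterase gene cest-26 (370, 1401 bp) and nucleotide sugar transporter gene nstp-2 (393, 1057 bp) completed these, with pooled signal and upstream distance in parentheses.

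Others of the 20 were nearest to genes of transcription factors. The summit 2324 bp upstream of nhr-62, a nuclear receptor needed for the long life of diet-restricted worms, reached 413 in the pooled list, 222 in replicate 1 and 188 in replicate 2. The summits upstream of mml-1, a Myc and Mondo-like factor, klf-1, a Krüppel-like factor, and sbp-1, the worm SREBP that controls fatty acid synthesis, had pooled signals of 333, 331 and 331. Their distances to the TSS were 1843, 2802 and 2615 bp. Of the 20 summits, 16 lay upstream of the nearest TSS. The other 4 lay past the end of zig-13 (368), sdz-19 (363), ZK637.12 (356) and R10A10.1 (339). The remaining summits of the 20 were nearest to W02F12.2 (363) and pad-1 (358). In all 20 windows at least 90% of the 31-mers occur once in the genome, as in 1342 of the 1367 (98.2%).

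**Figure D1:**
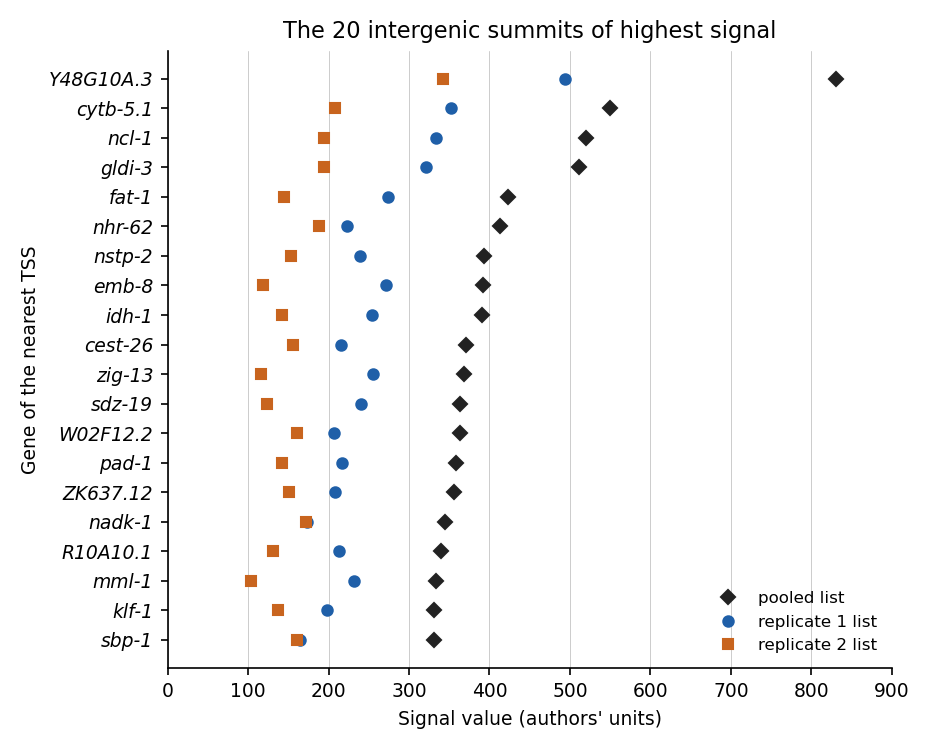
Signal values of the 20 intergenic summits of highest pooled signal (horizontal axis, authors' units) by the gene of the nearest TSS (vertical axis), with diamonds for the pooled list, circles for replicate 1 and squares for replicate 2. The Y48G10A.3 summit leads in all 3 lists. The lists are not on a common scale, so the distance between circle and square is not a difference between replicates.

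Both replicates held nearly every summit. A region covered the summit in both replicate lists at 1335 of 1367 (97.7%, 96.7 to 98.3%), against 97.9% of all optimal regions. The exceptions were 18 found in replicate 1 alone, 13 in replicate 2 alone and 1 in neither. Regions among the top 8745 of both replicate lists covered 1078 summits (78.9%, 76.6 to 80.9%), against 78.8% of all optimal regions. The authors chose the optimal set from these same lists by reproducibility, so neither share is separate support for the summits. Median signal was 46.7 in replicate 1 and 28.6 in replicate 2, and the lists were not put on a common scale, so only ranks are compared between them. Spearman's rho of the replicate signals was 0.71 over the 1335 summits, 0.65 over the 668 of higher pooled signal and -0.07 over the 667 of lower pooled signal. The split was made on the pooled signal, which holds both replicates, and a narrow range of pooled signal sets the replicate values against each other, so the low rho among the weaker summits does not show whether the replicates share their order. These correlations are across regions of the same 2 libraries and describe those libraries only.

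**Figure D2:**
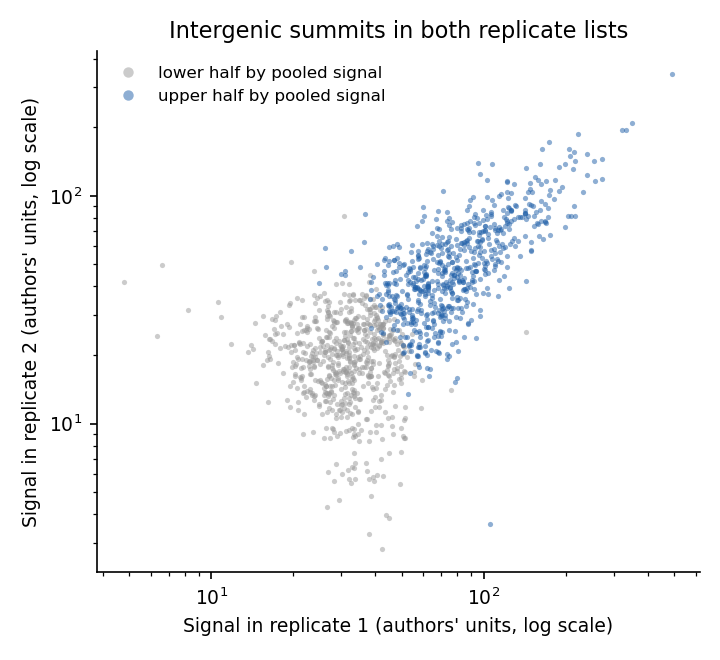
Signal in replicate 1 (horizontal, log scale) against replicate 2 (vertical, log scale) for the 1335 intergenic summits covered in both replicate lists, 1 point each. Summits of higher pooled signal (blue) rise along the diagonal, and those of lower pooled signal (grey), which are held to a narrow range of pooled signal, form a cloud with no slope.

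The middle summit differed by 4.34 percentile points in rank between the replicates. Of the 1335, 8 differed by more than 50 points, against 44 of the 8557 optimal regions covered in both replicate lists. The widest gap towards replicate 1 was 2497 bp upstream of hda-4, a class II histone deacetylase gene, where the pooled list gave 186, replicate 1 gave 106 and replicate 2 only 3.61. Summits by W07G4.5, ist-1, pmpl-1 and pde-2 followed, with pooled signals of 45.7 to 49.9. Towards replicate 2 the widest gap was a summit 1131 bp upstream of vhp-1, a phosphatase of stress-activated kinases, with 4.79 in replicate 1, 42.1 in replicate 2 and 38.6 in the pooled list. Its replicate 2 region was also the match of another vhp-1 summit 229 bp away (72.7 in replicate 1, 96.6 pooled). Those by F26A3.4, nlp-68, T28D6.4 and affl-2 came next, and all had pooled signals of 45.2 or less.

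The summits were not spread evenly over the sequence open to them. The rule left 12.2 Mb of the genome eligible (12.2%), which gave 112 summits per Mb, against 177 in promoter windows, 53.98 in introns and 81.6 in intergenic sequence beyond 3000 bp. Upstream of the nearest TSS lay 1057 summits (77.3%, 75.03 to 79.5%), where 68.6% of the eligible sequence lay. The density was 126 per Mb there (118.9 to 134). Past the end of the gene with the nearest TSS lay 310 summits at 80.8 per Mb (72.3 to 90.3). The 2 intervals did not overlap. Upstream density fell with distance, from 149 per Mb at 1001 to 1500 bp (136 to 164, 447 summits) through 118 per Mb in both of the next 500 bp bins to 99.8 per Mb at 2501 to 3000 bp (84.5 to 118, 138 summits). Past gene ends the bins ran from 65.4 to 90.4 per Mb in no order, with overlapping intervals, and the bin at 201 to 500 bp held only 7 summits.

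**Figure D3:**
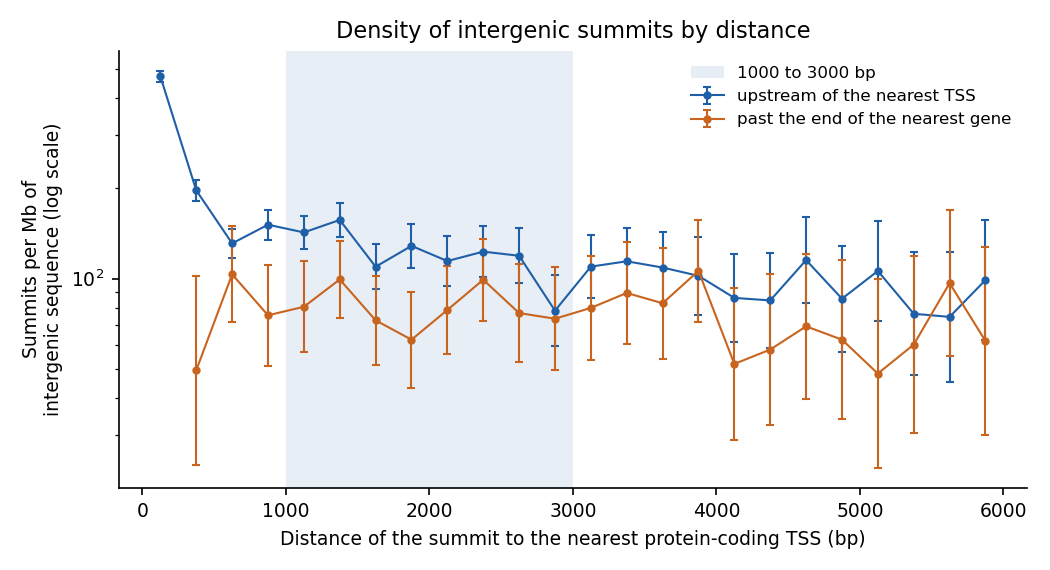
Intergenic summits per Mb of intergenic sequence (vertical, log scale) in 250 bp bins of distance to the nearest TSS (horizontal), upstream (blue) and past gene ends (orange), with 95% Wilson intervals; bins with no summit are left out and promoter summits in intergenic sequence are included. Upstream density is 472 per Mb in the first bin and 131 per Mb at 501 to 750 bp, and in the shaded distances it goes from 142 per Mb at 1001 to 1250 bp to 78.1 per Mb at 2751 to 3000 bp.

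The bound of 1000 bp between promoter and flank therefore cut through a plateau and not a step. The upstream density of intergenic summits was 151 per Mb at 751 to 1000 bp, inside the promoter window, 142 at 1001 to 1250 bp and 157 at 1251 to 1500 bp. The summits just outside the window, by gbas-1 (1002 bp, signal 78.8), F52D2.7 (1002 bp, 54.4) and sav-1 (1006 bp, 111), had neighbours just inside it by Y32F6B.1 (1000 bp, 53.9), nhx-2 (999 bp, 79.3) and C46C11.3 (998 bp, 53.7). At the outer bound, the last summits kept were by F19C7.8 (3000 bp, 90.9), adh-1 (2993 bp, 146) and F07H5.13 (2986 bp, 176), and the nearest ones left out by F49E12.12 (3009 bp, 119), bca-1 (3015 bp, 83.8) and T27D12.6 (3016 bp, 48.1). Signal and distance had almost no rank relation among the upstream summits (Spearman's rho 0.02 over 1057 regions of the same set, as a description).

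The layout of the flanking genes went with the density. Gaps into which both neighbouring genes open, so that both start there, held 487 summits at 129 per Mb (118 to 141). Gaps between genes in tandem held 769 at 117 per Mb (109 to 126). Gaps where both genes end held 111 at 60.01 per Mb (49.8 to 72.3), an interval below those of both other kinds, and their median signal was 79.3 against 70.2 where both genes start. Gap length made little difference to the density up to 10 kb, with 109 to 118 per Mb, and it was 88.9 per Mb in longer gaps. Of 8663 gaps with eligible sequence, 1096 (12.7%) held a summit, 219 held several, and the most in any gap was 5. Another optimal summit lay within 1000 bp of 374 (27.4%), against 24.3% of all optimal summits. By chromosome, the density in eligible sequence was 148 per Mb on I, 137 on III, 126 on II, 104 on X, 97.2 on V and 87.8 on IV.

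The 1367 summits had 1175 nearest genes, 5.88% of the 19973 protein-coding genes, and 164 of these genes were nearest to several. Of the 1367, 583 (42.6%, 40.1 to 45.3%) had a nearest gene that also had an optimal summit in its own promoter window, where 24.8% of all protein-coding genes have one. Such genes were nearest to 21.1% of the eligible sequence, so the density was 226 per Mb beside them and 81.4 per Mb beside genes with none. Median signal was 75.8 beside the former and 70.3 at the 784 summits beside the latter. The share depends on the window, since it was 28.5% with promoters of 500 bp upstream and 100 bp downstream, which hold fewer summits.

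Some genes gathered several summits. mak-1, a kinase of the MAPK-activated family, was nearest to 5, of which 3 lay 1659 to 2592 bp upstream with signals of 44.8, 222 and 89.7, and 2 lay past its end with 44.0 and 61.1. The upstream summits with 222 and 89.7 were 200 bp apart within the same coordinates (II 8742037 to 8742531), and both were matched to the same replicate 1 region (121.9). nhr-135 was nearest to 4, all upstream between 1628 and 2736 bp, with signals of 185, 69.0, 94.6 and 93.5. The nhr-135 summits with 185 and 69.0 were 199 bp apart within the same coordinates, and the weaker had no replicate 2 region. osm-11, which encodes a secreted Notch co-ligand, was also nearest to 4, with 41.1 and 69.4 past its end and 64.2 and 63.4 upstream. nadk-1 had 3, all upstream, with 344, 164 and 40.7, and vhp-1 had 3, all upstream, with 279, 96.6 and 38.6. The 2 weaker summits of nadk-1 were matched to the same replicate 2 region (51.2), and so were the 2 weaker of vhp-1 (42.1). In nadk-1 and vhp-1 the strongest summit was the one farthest from the gene. They were not the only genes with 3 summits, since gld-4 also had 3. In nhr-34 the order was another, with 238 at 1045 bp, 111 at 1715 bp and 172 at 2154 bp.

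Grouped by the function of the nearest gene, the summits were dense beside genes for lipid metabolism, nuclear receptors and intestinal proteins. They were also dense beside the list of basic helix-loop-helix, bZIP, forkhead and other factor genes. They were sparse beside chemoreceptor, neuropeptide, neuron and homeobox genes, and beside F-box and MATH-domain genes. The 24 lists were drawn by gene symbol, and each density is over the eligible sequence nearest to the genes of the list, so it takes account of how much flank a family has. Over all genes it was 112 per Mb (106 to 118).

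**Figure D4:**
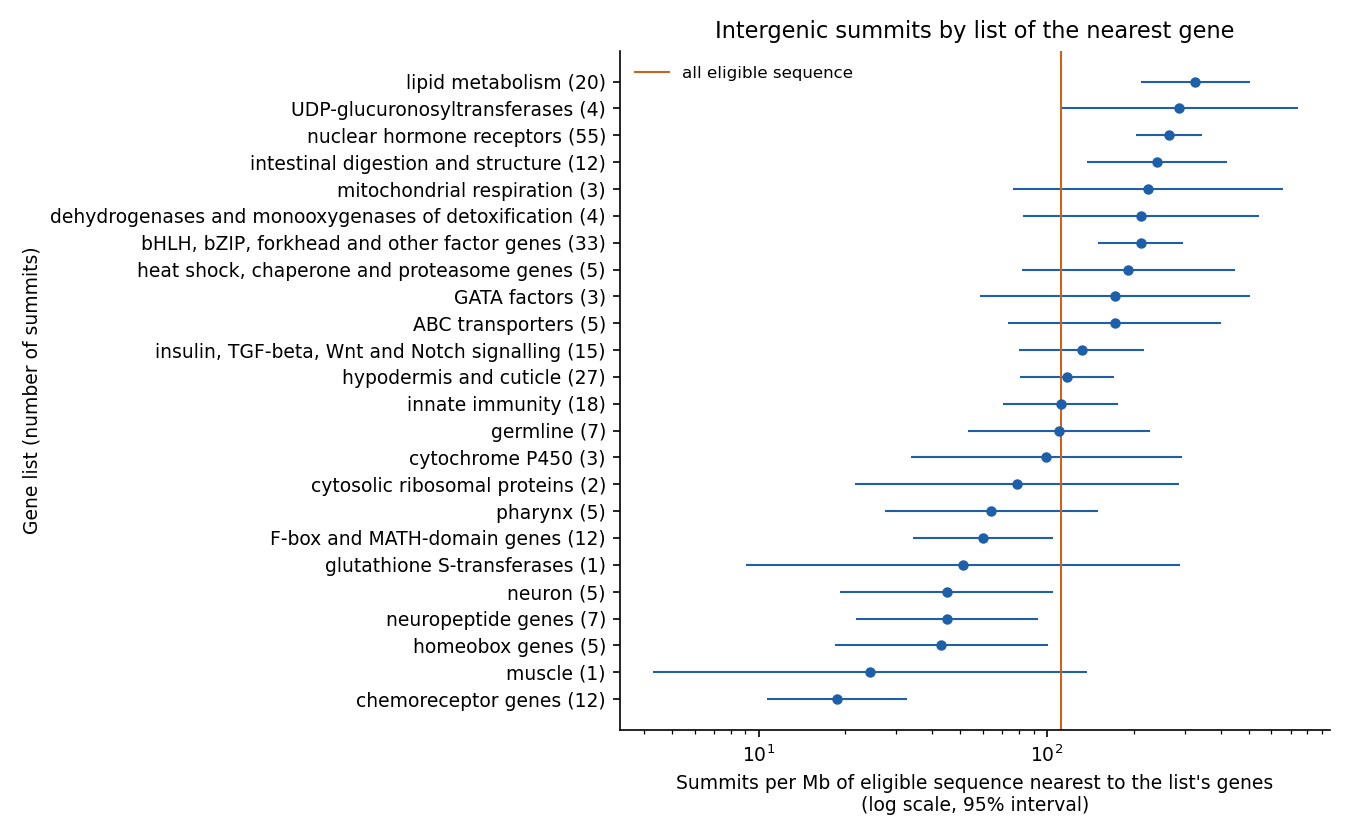
Intergenic summits per Mb of eligible sequence nearest to the genes of each of 24 lists (horizontal, log scale), with 95% Wilson intervals and the number of summits in parentheses; the orange line is the density over all eligible sequence, 112 per Mb. Lipid metabolism lies at the top with 327 per Mb and chemoreceptor genes at the bottom with 18.7 per Mb.

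Lipid metabolism had the highest density, with 20 summits beside 18 of its 118 genes, or 327 per Mb (212 to 506), and a median signal of 143 (range 39.5 to 423). The strongest were those of fat-1 (423) and of sbp-1 (331), described above. Next to fat-1, its neighbour fat-2, the delta-12 desaturase, had a summit 1205 bp upstream that reached 228 in the pooled list, 126 in replicate 1 and 103 in replicate 2. fat-5, a palmitoyl-CoA desaturase, had 59.5 and elo-3, a fatty acid elongase, had 172. Activation and transport into mitochondria were represented by the acyl-CoA synthetase genes acs-5 (279), acs-4 (160), acs-1 (80.7), acs-6 (52.8), acs-2 (48.4) and acs-20 (41.8), and by the carnitine palmitoyltransferase gene cpt-1 with a pair of summits (217 and 59.3). sams-1, the S-adenosylmethionine synthetase that feeds phosphatidylcholine synthesis, had 244, the fatty acid binding protein gene lbp-7 had 245, the lipid droplet gene plin-1 had 198 and the lipase gene lipl-5 had 125. The weaker summits included those of lbp-8 (59.9), cpt-6 (39.5) and a second of fat-1 (48.1). Of the 20, 18 lay upstream, 12 exceeded the median signal of the optimal set and 11 (55%, 34.2 to 74.2%) held TGATAA. Over all 1367 summits these shares were 77.3%, 49.96% and 34.2%.

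Nuclear hormone receptor genes had 55 summits beside 44 of 274 genes, at 265 per Mb (203 to 344), with a median signal of 102 (range 43.0 to 413). After nhr-62 came nhr-21, with a signal of 286 in the pooled list, 169 in replicate 1 and 116 in replicate 2, and nhr-286, with 241, 149 and 91.2 in the same order. The well-studied receptors nhr-14 (163 and 132) and nhr-31 (126) were also among the 44, as was nhr-85 (53.8), a Rev-erb relative that acts in larval timing, and nhr-6 (51.1), the worm NR4A receptor. Of the 55 summits, 16 were on chromosome V, and 49 lay upstream. The share of the family's eligible sequence on that chromosome was not measured. The nearest receptor gene also had a promoter summit at 36 of the 55. TGATAA was present at 17 (30.9%, 20.3 to 44.0%). Over all 1367, 77.3% lay upstream, 42.6% had such a nearest gene and 34.2% held TGATAA.

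Intestinal genes had 12 summits beside 10 genes, at 242 per Mb (138 to 422). cpr-4, a cathepsin B protease gene, led with 245 past its end and 42.1 upstream. The gut esterase gene ges-1 had 164, the ferritin gene ftn-2 had 161 and 56.6, the aspartyl protease gene asp-1 had 127, the intermediate filament gene ifb-2 had 110 and the lysozyme gene lys-2 had 104. TGATAA was present at 7 of these 12, an interval of 32.0 to 80.7%, which includes the 34.2% of all 1367. The list of basic helix-loop-helix, bZIP, forkhead and other factor genes had 33 summits beside 26 genes, at 211 per Mb (151 to 297), and mml-1, klf-1 and sbp-1 led it.

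The drug-handling lists had 0.0139 to 0.0301 Mb of eligible sequence each, with small counts and wide intervals. The UDP-glucuronosyltransferase genes had 4 at 288 per Mb, with an interval of 111.9 to 739 that reaches the density of all genes, and ugt-45 led with 294. Cytochrome P450 genes had 3 at 99.6 per Mb (33.9 to 293), all weak to middling, with cyp-42A1 at 73.0, cyp-33C4 at 53.3 and cyp-35A4 at 36.9. Glutathione S-transferase genes had a single summit, by gst-39 (45.1), at 51.1 per Mb (9.03 to 290). Aldehyde dehydrogenase gene alh-4 (172), alcohol dehydrogenase gene adh-1 (152) and flavin monooxygenase gene fmo-4 (116) led the 4 summits of the dehydrogenase and monooxygenase list, at 212 per Mb (82.4 to 545), and abt-4 (142), haf-9 (61.6) and pgp-2 (46.3) the 5 of the ABC transporters, at 172 per Mb (73.4 to 402). All 5 of these intervals included the density of all genes.

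At the low end, chemoreceptor genes, the largest family with 1309 genes, had 12 summits at 18.7 per Mb (10.7 to 32.8), led by str-77 (180), srg-26 (144) and srd-7 (89.1). Homeobox genes had 5 at 43.0 per Mb (18.4 to 100.7), of which hmbx-1 had 305 while ceh-79 and ceh-13 had 46.5 and 43.6. Neuropeptide genes had 7 at 44.9 per Mb (21.8 to 92.7), led by nlp-40 (120), whose product is released from the intestine, nlp-26 (118) and nlp-24 (101.2). The neuron list had 5 at 44.96 per Mb (19.2 to 105), with acr-7 (83.4), snb-1 (48.8) and unc-33 (45.5), and the F-box and MATH-domain genes had 12 at 59.9 per Mb (34.3 to 105), with fbxa-145 (134), bath-44 (124) and fbxb-114 (105). These 5 lists had intervals wholly below the density of all genes.

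The other lists had intervals that included it. The hypodermis and cuticle list had 27 summits at 118 per Mb, led by the collagen genes col-55 (94.6), col-139 (87.7) and col-181 (85.7). Innate immunity had 18 at 112 per Mb, led by the C-type lectin gene clec-91 (236), irg-5 (222) and clec-17 (129). The signalling list had 15 at 132 per Mb, led by sma-9 (177), a Schnurri relative of the body size pathway, the insulin gene ins-33 (153) and the kinase gene akt-1 (126). Heat shock and proteasome genes had 5, led by hsp-25 (204), hsp-16.1 (177) and pas-5 (58.4). Germline genes had 7, led by glh-4 (152), msp-49 (135) and gld-4 (70.6), and the pharynx list 5, led by pqn-42 (102), pqn-78 (79.3) and pqn-70 (61.8). Mitochondrial respiration had nduf-7 (123), cox-19 (120) and cox-5B (54.8), the ribosomal proteins rpl-31 (41.4) and rps-25 (38.8), the GATA factors elt-3 (66.2) and end-1 (40.4), and muscle unc-60 (45.8).

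Genes that do not code for protein were close to some of these summits. 11 summits lay within 1000 bp upstream of the annotated start of a microRNA gene, a density of 225 per Mb of such sequence (126 to 403). The strongest lay 93 bp upstream of mir-60, with a signal of 298 in the pooled list, 161 in replicate 1 and 139 in replicate 2, and it is the set-4 window shown above. The next lay 148 bp upstream of mir-53 (175), then came mir-83 (121), mir-72 (102), a summit shared by mir-73 and mir-74 (64.8) and mir-355 (48.8). mir-51 had 2 (45.5 and 45.2), mir-63 had 38.9, mir-248 had 38.01 and let-7, the microRNA that times the larval to adult switch, had 36.8 at 159 bp. Those of let-7 and mir-248 ranked 8640 and 8418 of the 8745 regions. No replicate 1 region covered the summit shared by mir-73 and mir-74, the mir-51 summit of 45.5 or the mir-248 summit. Their replicate 2 signals were 41.5, 26.2 and 6.46 in that order. Among all summits described here, 13 were found in replicate 2 alone. Transfer RNA genes had 24 summits in the same window at 249 per Mb (167 to 370) and small nucleolar RNA genes 12 at 328 per Mb (188 to 573). By contrast the piRNA genes had 45 at 61.6 per Mb (46.1 to 82.4) and pseudogenes 40 at 62.7 per Mb (46.1 to 85.4).

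The GATA motif was the most frequent of the 12 motifs searched, on both strands, within 50 bp of the summits. TGATAA occurred at 467 of 1367 (34.2%, 31.7 to 36.7%), against 33.3% of all optimal regions. In windows of the same width 500 bp to either side it occurred in 10.7%, and in windows tiled over all eligible sequence in 9.67%. The share was 32.2% at promoter summits, 35.3% at intronic and 33.4% at the more distant intergenic summits. Several copies were present at 132 (9.66%). The motif centre lay a median of 20.5 bp from the summit. Signal differed little with it, with a median of 75.4 where it was present and 71.3 where it was absent, and from the lowest to the highest quartile of signal of the summits the share was 30.4, 35.7, 36.95 and 33.6%. By gap layout it was 28.7% where both genes start, 37.1% between genes in tandem and 37.8% where both end.

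**Figure D5:**
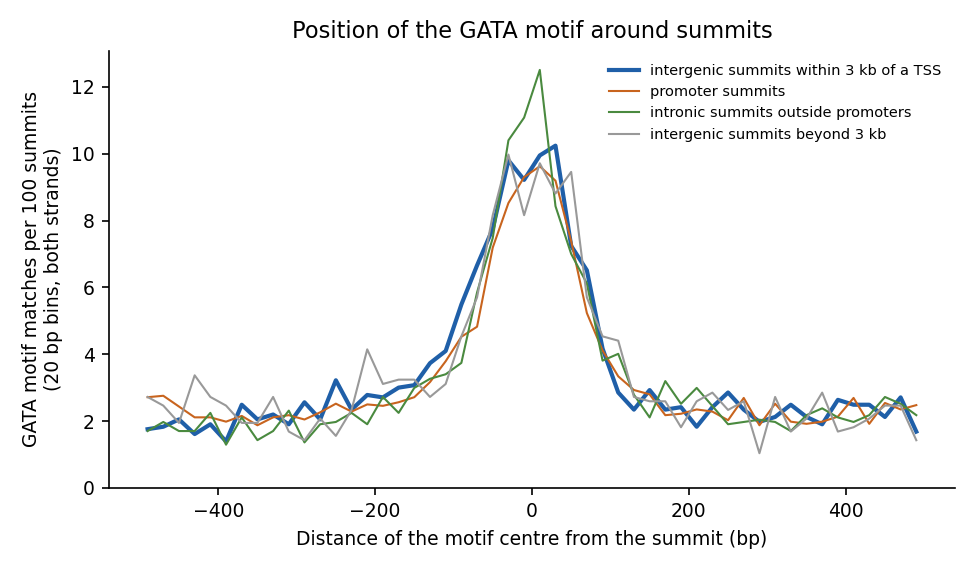
Matches to TGATAA per 100 summits (vertical) in 20 bp bins of distance from the summit (horizontal), for the 1367 intergenic summits (thick blue) and for promoter, intronic and more distant intergenic summits. All 4 lines rise from about 2 at 400 to 500 bp to about 10 around the summit.

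The other motifs were less frequent. GAGAGAGA, a run bound in flies by GAGA factor, occurred at 88 summits (6.44%, 5.25 to 7.86%) and in 0.732% of the flanking windows. It occurred at 4.89% of promoter, 6.46% of intronic and 6.87% of more distant intergenic summits. CACGTG occurred at 62 (4.54%, 3.55 to 5.77%) against 1.98% of flanks and 4.60% of all optimal regions. The median signal of those 62 summits was 109. CCGCCC occurred at 38 (2.78%, 2.03 to 3.79%) against 1.35% of flanks, and at 4.56% of promoter summits, and the intervals of these 2 kinds of summit did not overlap. The nuclear receptor half-site AGGTCA occurred at 71 (5.19%, 4.14 to 6.501%) against 3.11% of flanks, and AGTTCA at 100 (7.32%, 6.05 to 8.82%) against 6.47%. Over all optimal regions AGGTCA occurred at 4.38% against 2.74% of flanks. AGTTCA was there rarer at the summits than beside them, at 5.98% against 7.27%. AAGTCCA, part of the HNF4-type element, occurred at 3 (0.219%, 0.0747 to 0.643%) against 0.475% of flanks and 0.503% of all optimal regions. GTAAACA (2.19%), TGACTCA (1.68%) and CAGCTG (2.78%) were each present at under 3 in 100. The homeodomain core TAATTA was rarer at the summits than beside them, at 1.24% against 5.74%, as was TTTCAG, at 6.95% against 17.3%. Base composition moved with these values and its part was not tested: the median GC content of the windows was 40.6%, against 32.7% in the tiled eligible sequence. All motif shares are descriptions of letters in these windows and not of sites in use.

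The summits were also compared with regions that missed the optimal set. Of the 29697 regions of the pooled list, 20952 were outside it, and 2703 of those (12.9%, 12.5 to 13.4%) met the same rule of placement. The share was 15.6% in the optimal set, and the intervals did not overlap. By its name the pooled list holds background as well as peaks, and the eligible sequence made up 12.2% of the genome. Promoter summits made up 33.4% of the regions outside the optimal set and 53.1% of those inside it.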

How the data were processed

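ChIP-seq regions came from 2 biological replicates of L4 larvae with eGFP-NHR-28. Per the file headers, the authors called regions in each replicate and in the pooled alignments against a control alignment, and chose the optimal set from these lists by irreproducible discovery rate. Peak caller, threshold and scale of the deposited signal value: not given in the sources. Here signal only ranks regions within a list. The ce11 lists were used and the ce10 lists were not.

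Summits were placed on Ensembl release 115 genes (WBcel235), with TSSs of protein-coding transcripts, and sequence from RefSeq WBcel235, using Python 3.11.15, numpy 2.4.6, pandas 2.3.3, scipy 1.17.1 and matplotlib 3.10.9. Placement and motif search were tested on simulated data. In each replicate list the region of highest signal covering the summit was taken as its match. With 1 group no test was made; Wilson 95% intervals are given. The named regions were the 20 of highest signal, 3 genes per list and 5 genes with most summits, the last of them taken from genes tied at 3. Also named were the 5 largest rank differences each way, those at the bounds and those by microRNA genes. All genes of the lipid list with a summit, and more of the nuclear receptor and intestinal lists, were named after their values were seen. The summits and lists were chosen with earlier results of these data known. Alternatives changed the window, the distance, the genes avoided, the placement, the regions used, the motif window and the replicate.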

Additional observations from a re-analysis of the deposited data

How the results depend on the processing

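Of 72 recomputed values of 7 results, 50 stayed within the 95% interval of the value reported, or for the number of summits within 1.5 times of it, and 22 moved. The number fell from 1367 to 595 with promoter windows of 2000 bp upstream and 500 bp downstream, to 900 within 2000 bp of a TSS and to 683 in the stronger 4372 regions. Their share of the optimal set was 22.8% with windows of 500 bp upstream and 100 bp downstream, 6.80% with the wide window, 10.3% within 2000 bp, 21.1% within 5000 bp, 17.04% when only protein-coding genes were avoided and 11.5% when the whole region had to lie outside genes and windows. The share with TGATAA was 20.2% within 25 bp and 48.8% within 100 bp, and from 30.9% to 34.9% with each replicate left out, the lower value without replicate 1. Coverage in both replicates was 98.7% in the stronger regions and from 95.08% to 95.10% with each replicate left out. In these last settings the summits came from the list of the remaining replicate, which always covers them. Those values are thus coverage by the list left out alone. The share whose nearest gene has a promoter summit was 28.5% with the narrow window, 55.5% with the wide one and 29.1% in the stronger regions. In that last setting the promoter summits were also limited to the stronger regions. With all promoter summits kept, the share was 39.2, 41.8, 40.8 and 48.8% from the lowest to the highest quartile of signal. The share upstream was 84.1% with the narrow window, 58.0% with the wide one and 80.8% with the whole region outside. The share above the median signal was 52.8% with the whole region outside. In the stronger regions that last share is fixed by construction and was not computed. With at least 90% unique 31-mers, a setting chosen after seeing the data, 34.6% held TGATAA. By construction a narrower rule or fewer regions cannot raise the number of summits, and a wider rule cannot lower it. The cause of the other moves was not tested. No paired analysis was possible because there is 1 group. Depth is unknown.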

Other observations

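Among all 6-mers, counted per window on either strand and chosen after their values were seen, the GATA motif had the widest excess in the 1367 summit windows over their flanks. GAGAGA followed, at 24.2% of summits and 4.65% of flanks. The word ACACAC was present at 16.02% of summits, 4.06% of flanks and 12.6% of promoter summits. The widest deficit was that of a word made of adenine and thymine alone, present at 24.7% of summits against 54.4% of flanks. The summits beside lincRNA genes, 12 within 1000 bp upstream of their starts, had a median signal of 120, against 72.7 for all 1367.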
